A study of Mus musculus with 8 samples.

Results

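Accessible chromatin was examined at 9 genes whose products are used to mark mammary stem and progenitor cells, in cultured tumour cells with and without Lats1. The genes were Cd44, Cd24a, Aldh1a1, Aldh1a3, Prom1, Procr, Kit, Lgr5 and Bmi1, of 39362 annotated genes with a peak in at least 1 library. A peak was counted for a gene if it overlapped the gene body or lay within 10 kb of one of its annotated transcription start sites (TSS). Peaks of all libraries that overlapped each other were merged into 183173 regions, of which 72 belonged to these 9 genes.

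The cells were cultures derived from mammary tumours of MMTV-PyMT mice, in which the polyoma middle T oncogene is driven in mammary epithelium, so every group carried the oncogene. The labels give the strain as FBV/N. Cultures were WT or Lats1-CKO, the latter lacking the Hippo pathway kinase LATS1 in the epithelial compartment, and each was sorted by FACS into a luminal (EpCAM-high; CD49f-high) and a basal-like (EpCAM-low; CD49f-high) population and briefly expanded before ATAC-seq. The 8 libraries formed 4 groups of 2. From WT cultures, BM1 and BM5 were luminal libraries, while the basal-like ones were BM2 and BM6. From Lats1-CKO cultures, the luminal libraries were named BM3 and BM7 and the basal-like libraries BM4 and BM8. Values of single libraries are given below in the order BM1, BM5, BM2, BM6, BM3, BM7, BM4 and BM8. The study calls the 2 ATAC-seq libraries of a group biological replicates. The labels do not name the animal or culture behind each library, so p-values measure the spread between these libraries, part of which may be technical.

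The library labelled BM3 stood apart. Its list held 14753 peaks, against 51497 to 99022 in the other 7 libraries, and each comparison of genotypes over the 4 groups is therefore given with and without it. According to the study's methods, a Lats1-CKO luminal replicate failed quality control and was left out there; which of the pair is not named, so the comparisons over all libraries may include it. The longest lists were those of the other 3 Lats1-CKO libraries, with 86279 to 99022 peaks, against 51497 to 72685 in the 4 WT libraries, so the length of the list moved with genotype. The peak lists carry no read totals, and depth per library was not analysed here. At Lats1 itself a peak within 1 kb of a TSS was present in 7 libraries, all except BM3, and it does not check the deletion. Of 13 luminal marker genes, 12, 11, 11, 7, 5, 11, 7 and 8 had such a promoter peak. Of 9 basal markers the numbers were 4, 4, 4, 4, 1, 6, 5 and 3. Krt14 was marked in all 8 libraries, Vim in 7, Myh11 in 6, Oxtr in 4 and Cnn1 in 3. Krt5 and Krt17 were marked only in BM7, Acta2 only in BM4 and Trp63 in no library. The basal-like libraries were thus not set apart by the basal list. Immune markers were marked at 0 to 5 of 7 genes, with Csf1r marked in 6 libraries and Cd3e and Itgam in none. Fibroblast markers were marked at 0 to 6 of 8, with the highest numbers (6 and 5) in BM4 and BM8. The part of other cells in the results below was not tested.

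The 9 proteins do different work. CD44 is a receptor for hyaluronan, and CD24 (Cd24a) is a small glycosylated surface protein, and the pair is widely used to sort mammary cells. ALDH1A1 and ALDH1A3 oxidise retinaldehyde to retinoic acid and underlie the aldehyde dehydrogenase activity assay for progenitors. Prominin-1 (Prom1, CD133) sits in membrane protrusions, and PROCR is the endothelial protein C receptor, a marker of a basal stem cell subset. KIT is the receptor of stem cell factor and marks luminal progenitors, and LGR5 is a receptor for R-spondins that raises Wnt signalling. BMI1 is a subunit of Polycomb repressive complex 1, which represses the Ink4a-Arf locus and sustains self-renewal. ATAC-seq marks open chromatin through cuts by the Tn5 transposase, and a peak at a gene is not a measure of its transcript.

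The sequences below are of the regions outside untranslated regions on which the description turns. For each gene, the candidate region was taken whose lowest score percentile (defined below), over the libraries with the peak, was highest. Of these, the regions called in most libraries (Cd44, Cd24a, Procr, Bmi1) or in WT libraries alone (Prom1) are shown. The regions so found at Kit and Lgr5, each called in 1 library, are left out. Each is written 5′ to 3′ on the strand of its gene in mm10 (GRCm38), and capitals mark a match to the AP-1 motif TGANTCA or the TEAD motif GGAATG. Where the region was longer than 300 bases, its central 300 are shown.

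Cd44 intron, chr2:102849945-102850244, minus strand: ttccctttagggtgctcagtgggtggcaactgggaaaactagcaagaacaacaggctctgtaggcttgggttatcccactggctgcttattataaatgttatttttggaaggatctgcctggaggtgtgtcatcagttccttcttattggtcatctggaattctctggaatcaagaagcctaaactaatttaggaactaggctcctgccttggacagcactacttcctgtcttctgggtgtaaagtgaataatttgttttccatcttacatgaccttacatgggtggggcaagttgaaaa
Cd24a upstream, chr10:43577713-43577984, plus strand: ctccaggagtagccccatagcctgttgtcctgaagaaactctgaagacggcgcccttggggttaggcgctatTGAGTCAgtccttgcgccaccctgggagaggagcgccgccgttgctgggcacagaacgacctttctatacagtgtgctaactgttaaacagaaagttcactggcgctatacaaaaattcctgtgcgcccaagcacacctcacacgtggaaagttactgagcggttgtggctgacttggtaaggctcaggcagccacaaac
Prom1 promoter, chr5:44100954-44101165, minus strand: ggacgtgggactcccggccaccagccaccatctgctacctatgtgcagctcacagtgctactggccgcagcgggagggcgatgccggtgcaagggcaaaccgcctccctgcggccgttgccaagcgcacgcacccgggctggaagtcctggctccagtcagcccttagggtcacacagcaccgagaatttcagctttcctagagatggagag
Procr downstream, chr2:155755723-155756022, plus strand: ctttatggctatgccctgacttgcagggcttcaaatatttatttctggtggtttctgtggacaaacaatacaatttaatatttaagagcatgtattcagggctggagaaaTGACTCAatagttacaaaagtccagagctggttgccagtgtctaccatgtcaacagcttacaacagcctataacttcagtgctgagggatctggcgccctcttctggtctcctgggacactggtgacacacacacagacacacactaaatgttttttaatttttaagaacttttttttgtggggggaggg
Bmi1 upstream, chr2:18676557-18676856, plus strand: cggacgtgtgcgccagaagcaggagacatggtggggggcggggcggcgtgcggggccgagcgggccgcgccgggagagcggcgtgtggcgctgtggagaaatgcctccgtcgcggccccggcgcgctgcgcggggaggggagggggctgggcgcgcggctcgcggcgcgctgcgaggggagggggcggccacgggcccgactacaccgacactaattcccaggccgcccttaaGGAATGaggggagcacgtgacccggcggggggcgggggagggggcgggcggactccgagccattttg

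The Cd24a stretch held an AP-1 match starting at base 73 and the Procr stretch one at base 111, and the Bmi1 stretch held a TEAD match at base 234. No match to either motif, to the RUNX motif TGTGGT, to the E-box written as CAGGTG or to letters AGATAA for GATA factors, lay in the Cd44 and Prom1 stretches. CpG dinucleotides numbered 43 in the Bmi1 stretch, 13 in Prom1 and 12 in Cd24a, against 0 in Cd44 and 1 in Procr. The first 3 of these lay near a TSS and the last 2 away from one.

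Both strands of the 400 bp around the centre of every region were searched for the same 5 sets of letters, none of which contains another. This window was wider than most regions, so a match could lie in flanking sequence outside the region. The Prom1 window, for example, held TEAD letters that the region printed above lacks. An AP-1 match was found in the windows of 25 of the 72 member regions (34.7%), against 31.7% of all regions. TEAD letters were found in 11 (15.3%, against 25.5%), RUNX letters in 18 (25%, against 33%), E-box letters in 20 (27.8%, against 24.9%) and GATA letters in 11 (15.3%, against 15%). Median GC content of these windows was 49% for member regions and 47.5% for all regions. The regions themselves had a median width of 141.5 and 153 bp. These shares are descriptions, and a match is not a bound site.

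The 9 genes together held 25, 19, 29, 17, 8, 41, 28 and 35 peaks. BM3 had the fewest and BM7 the most. Per 10000 peaks of the library the number was 3.44, 3.23, 4.12, 3.3, 5.42, 4.39, 3.25 and 3.54. The highest of these rates was that of BM3, the shortest list, followed by that of BM7. Both Lats1-CKO luminal libraries thus lay above every other library, but the rate of BM3 rested on 8 peaks of a list of 14753. This order was not tested, and no such rate was computed for other genes. The other groups overlapped each other.

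**Figure D1:**
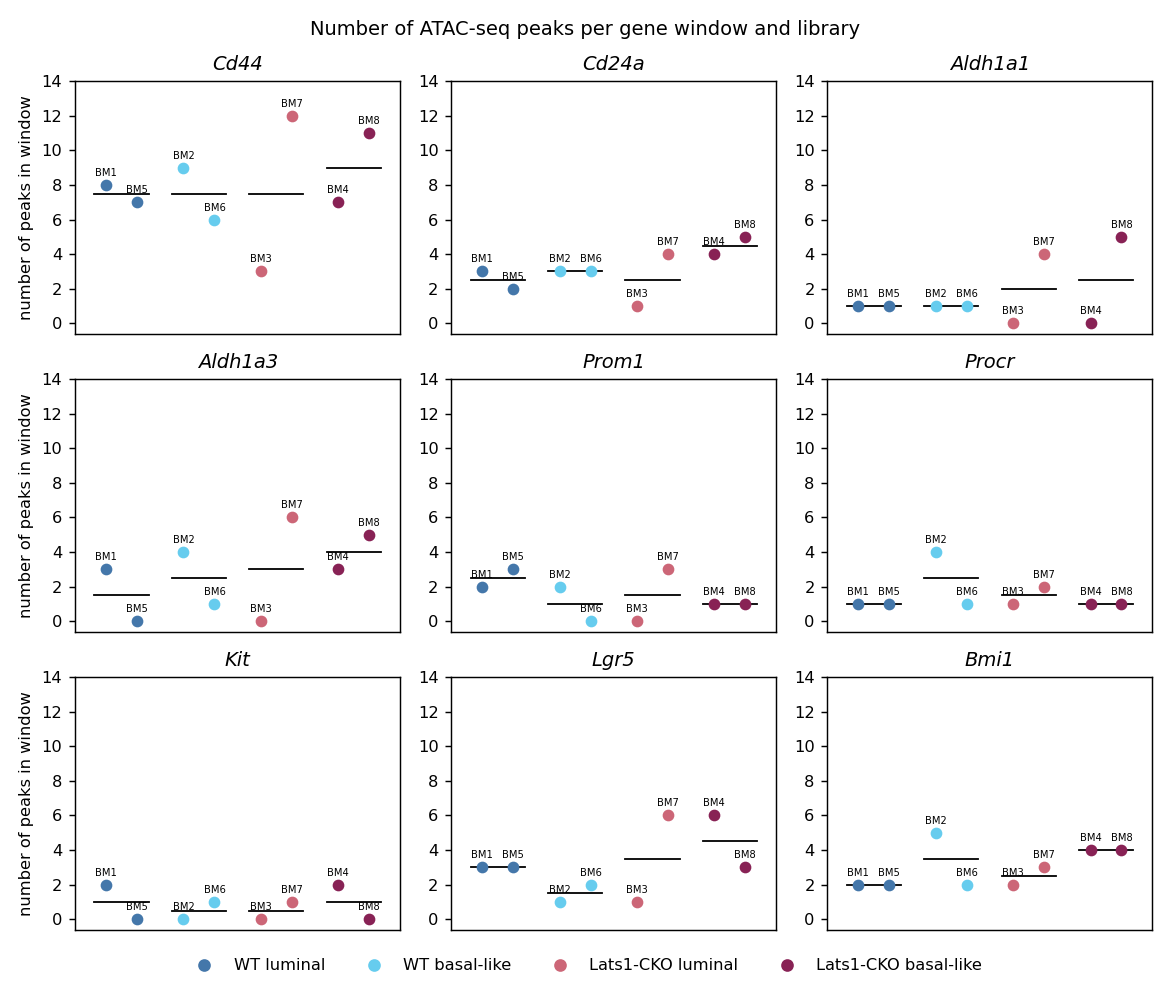
Number of peaks in the window of each gene (vertical axis) in the 8 libraries. Points are libraries, colours the 4 groups and black bars the group means (n = 2). Cd44 ranged from 3 (BM3) to 12 (BM7), and Kit never exceeded 2.

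Per 10 kb of window, the median over libraries was highest at Cd24a (1.39 peaks) and Bmi1 (1.04), followed by Cd44 (0.746), Aldh1a3 (0.643) and Procr (0.494). Lgr5 (0.202), Prom1 (0.127), Aldh1a1 (0.0622) and Kit (0.053) lay below the median of protein-coding genes, which was 0.448. Neighbours in this order overlapped in their ranges over the libraries, for example 0.462 to 2.31 at Cd24a and 0.83 to 2.08 at Bmi1, except Procr (0.494 to 1.98) and Lgr5 (0.0672 to 0.403). Long windows such as that of Aldh1a1 (161 kb) dilute a peak at a TSS.

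Recurrence over libraries was examined next. Of the 72 member regions, 6 (8.33%) held a peak in all 8 libraries, where the share over all regions was 5.95%. Another 5 were called in 7 libraries, and 36 (50%) in 1 library only, against 44.5% of all regions. The member regions called once came from BM7 (11), BM8 (8), BM4 (7), BM1, BM5 and BM2 (3 each) and BM6 (1). BM7 thus held 30.6% of them, BM8 22.2% and BM4 19.4%, where these libraries held 16.9%, 26% and 24.7% of all regions seen once. Of the member regions seen in either library of a group, both libraries shared 46.7% in WT luminal, 45.2% in WT basal-like, 19.5% in Lats1-CKO luminal and 39.5% in Lats1-CKO basal-like. The same shares over all regions were 41.7%, 47%, 14.3% and 40.2%.

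**Figure D2:**
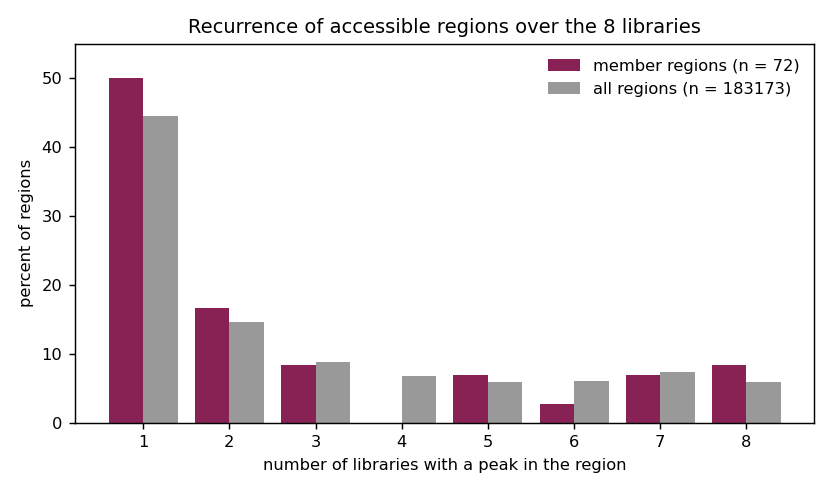
Percent of regions (vertical axis) by the number of libraries with a peak (horizontal axis), for the 72 member regions and all 183173 regions. Regions seen once made up 50% and 44.5%, and regions seen in all libraries 8.33% and 5.95%.

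The strength of a peak is given as its score percentile, the share of peaks in the same library with an equal or lower score, with ties at their mean rank. A percentile is relative to its own list: a longer list holds more weak peaks, and the same peak then ranks higher. Position is given in kb from the start of the gene, along its strand.

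**Figure D3:**
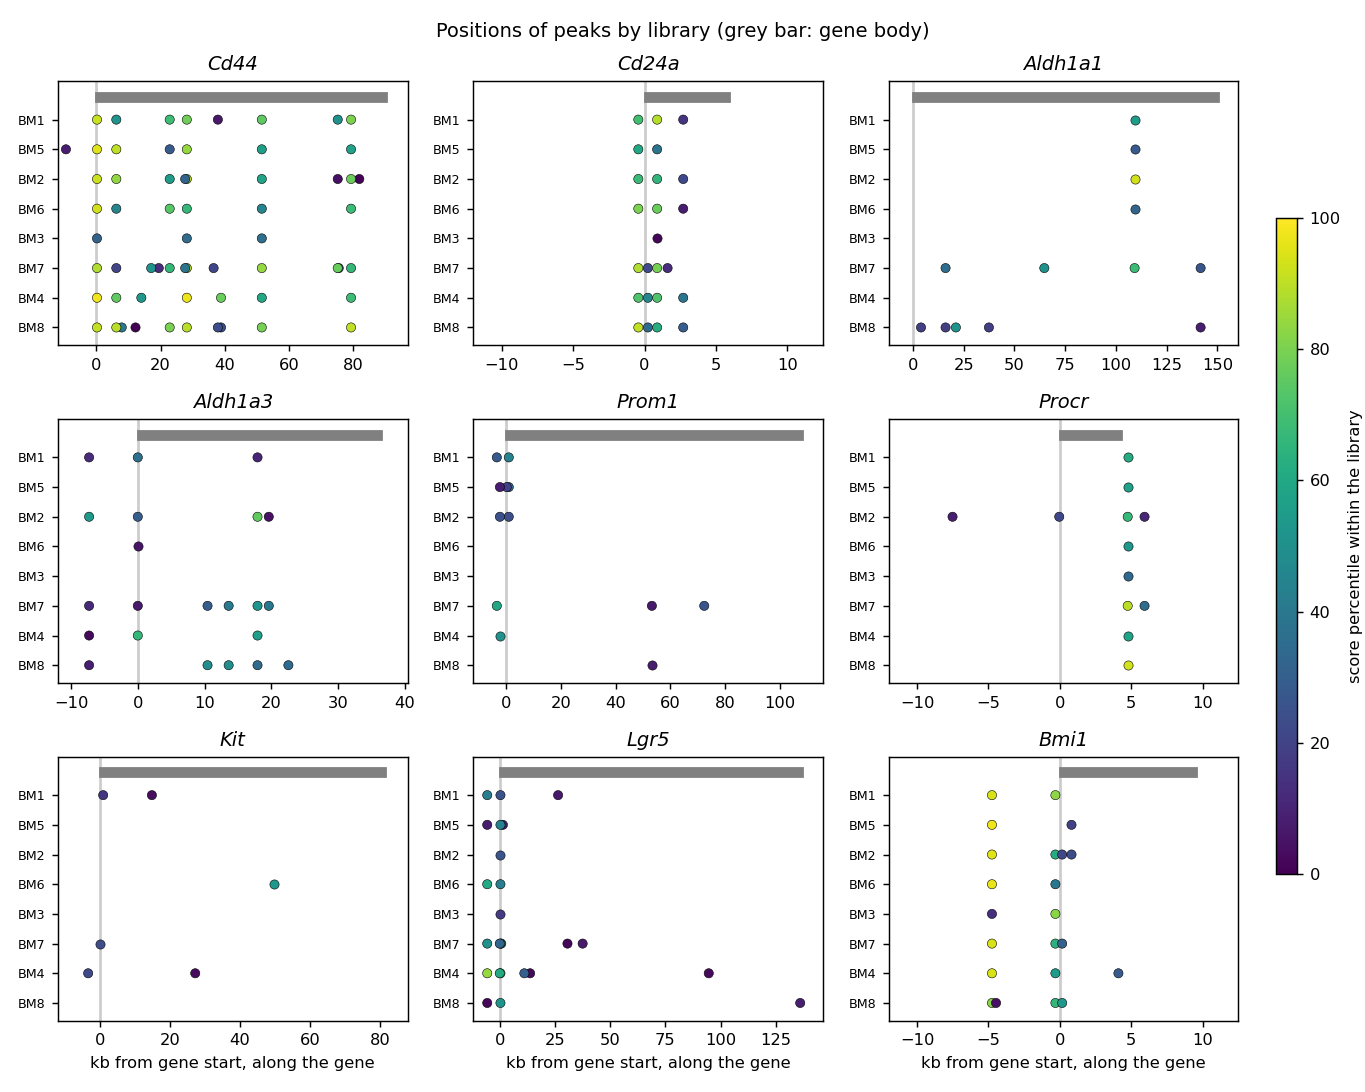
Position of each region with a peak (horizontal axis, kb from the gene start along the gene) by library (vertical axis), coloured by score percentile within the library. The grey bar is the gene body. Cd44 shows columns of points present in most libraries, and Kit scattered single points.

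Cd44, the hyaluronan receptor, lies on the minus strand of chromosome 2 (chr2:102811141-102901665), and 19 regions fell in its window, 3 of them called in all 8 libraries and 2 in 7. The region at its TSS (chr2:102901182-102901812, over the 5′ untranslated region) had percentiles of 91.8, 95.1, 92.1, 92.6, 31.4, 87.9, 97.8 and 91.4. It was at 87.9 or above in every library but BM3. An intronic region 28.2 kb into the gene (chr2:102873184-102873770) had 77.8, 84.1, 90.7, 66.5, 34.9, 89.4, 97.2 and 89.2. The intronic region 51.6 kb in, whose centre is printed above, had 75.3, 56.2, 57.9, 45.1, 36, 84.2, 60.1 and 79. At all 3, BM3 was the lowest library and the 2 genotypes overlapped. Regions 6.19 kb (intron) and 79.4 kb (exon) into the gene were called in all libraries but BM3, at percentiles of 20.3 to 90.2 and 57.5 to 90.4. One intronic region, 38.8 kb in (chr2:102862733-102862907), was called in BM4 (77.3) and BM8 (23.6) and nowhere else. It was the only member region called in both libraries of a single group and in no other, 1 of 72, where 2.38% of all regions had that pattern for one of the groups.

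Cd24a on chromosome 10 (chr10:43578284-43584265, plus strand) held 5 regions, all within 1 kb of one of its 3 annotated TSS. The widest (chr10:43578812-43579519, over exon and untranslated sequence) was called in all 8 libraries at 88.7, 38.5, 65.5, 77.3, 1.44, 79, 71.9 and 62.3. Upstream of the gene, the region with the AP-1 letters was absent from BM3 and had 69.9, 59.4, 67.7 and 80.1 in the WT libraries and 88.2, 72.1 and 91 in BM7, BM4 and BM8. Another region, 0.233 kb into the gene (chr10:43578398-43578637, exonic), was called in BM7 (22.3), BM4 (45.1) and BM8 (33.7) and in no WT library. These 3 libraries had the longest lists, and the percentiles were below the median of their libraries. The region 2.71 kb into the gene was called in BM2 (21.8), BM6 (7.61), BM4 (39) and BM8 (29.2), all basal-like. Among luminal libraries it was called in BM1 (15.4) alone, which lay above BM6, so the populations overlapped.

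Of the aldehyde dehydrogenase genes, Aldh1a1 and Aldh1a3 each had a promoter peak in 5 libraries. At Aldh1a1 (chr19:20492715-20643465, plus strand) the annotated gene extends far upstream of one of its protein-coding transcripts, and the only region called in more than 2 libraries (chr19:20601788-20602078) lay at the start of that transcript, 109 kb into the annotated gene. It was called in all 4 WT libraries (54.9, 28.5, 92.8 and 32.2) and in BM7 (68.2), and in neither BM3 nor the Lats1-CKO basal-like libraries. The other 6 Aldh1a1 regions were seen in BM7 or BM8 alone or in both. BM8 thus had 5 peaks in the window but none at this start, and 4 of the 5 lay within another gene, C730002L08Rik, that overlaps the upstream part of the annotated Aldh1a1 gene.

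Aldh1a3 (chr7:66390890-66427517, minus strand) had 7 regions. Its TSS region (chr7:66427424-66427657) was called in BM1 (36.6), BM2 (29.3), BM6 (5.68), BM7 (6.84) and BM4 (65.7). Regions 17.9 kb into the gene and 7.33 kb upstream were each called in BM1, BM2, BM7, BM4 and BM8. Intronic regions at 10.4 and 13.6 kb were called in BM7 and BM8 only, at 29.5 to 48.9. No peak was found in the window in BM5 or BM3, so both luminal groups had a library without any.

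Prom1 (chr5:43993620-44102032, minus strand) had promoter peaks in 3 WT libraries and in no Lats1-CKO library. The region printed above was called in BM1 (44.2), BM5 (37.8) and BM2 (23.8) and in no other library. It lies in an intron and within the antisense gene Gm16401, so the peak cannot be assigned to Prom1 alone. A second region, 0.24 kb into the gene, was called only in BM5 (18.8). Over the whole window, Prom1 had 2, 3, 2, 0, 0, 3, 1 and 1 peaks, and BM7, BM4 and BM8 were marked elsewhere in or upstream of the gene.

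Procr (chr2:155751117-155755471, plus strand) showed the opposite arrangement, with a constant peak away from its start. The region downstream of the gene (chr2:155755693-155756051), 4.35 kb from the nearest Procr TSS, was called in all 8 libraries at 61.2, 57.5, 67, 53.4, 33.8, 89.8, 58.5 and 93.2. Its highest values were those of BM7 and BM8, and the genotypes overlapped. The TSS itself was marked only in BM2 (21.3), the library that also held 4 of the peaks in the window against 1 or 2 elsewhere. The nearest other gene, Mmp24, lay 19.3 kb away.

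Kit (chr5:75574916-75656722, plus strand) had 6 regions and each was seen in a single library. Promoter peaks were called in BM1 (15.4) and BM7 (22.9), at different positions. The highest percentile at the gene was 53.4, in an intron in BM6, and BM5, BM2, BM3 and BM8 had no peak. No region called in more than 1 library was therefore found at Kit, and a list of called peaks cannot show that its chromatin was closed.

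Lgr5 (chr10:115450311-115587780, minus strand) had 12 regions, 9 of them seen once. The region just inside its TSS (chr10:115587350-115587607) had percentiles of 25.3 and 43.5 in WT luminal, none and 42.1 in WT basal-like, 16.8 and 70.9 in Lats1-CKO luminal, and 75.1 and 51.8 in Lats1-CKO basal-like. BM7, BM4 and BM8 were above every WT library and BM3 was not. A region 5.68 kb upstream was called in 6 libraries, with values from 1.83 (BM8) to 84.2 (BM4), that is, from near the bottom to near the top within a single group.

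Bmi1 (chr2:18677018-18686629, plus strand) had 6 regions. Its upstream CpG-rich region (chr2:18676468-18676945) was called in all libraries but BM5, at 83.2, 61.4 and 39.2 in WT and 82.4, 63.8, 54.6 and 66.4 in Lats1-CKO. It was the member region that ranked highest in BM3. The strongest region in the window lay 4.76 kb upstream (chr2:18672043-18672479), at the start of the neighbouring gene Commd3 and over its untranslated sequence. It had 94, 97.5, 95.2 and 96.8 in WT and 13.9, 93.8, 93.8 and 81.7 in Lats1-CKO. All 4 WT values were above all 4 Lats1-CKO values, but BM7 and BM4 were lower than BM1 by less than the WT libraries differed among themselves. The region belongs to the window of Bmi1 by distance and to the promoter of Commd3 by annotation.

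**Figure D4:**
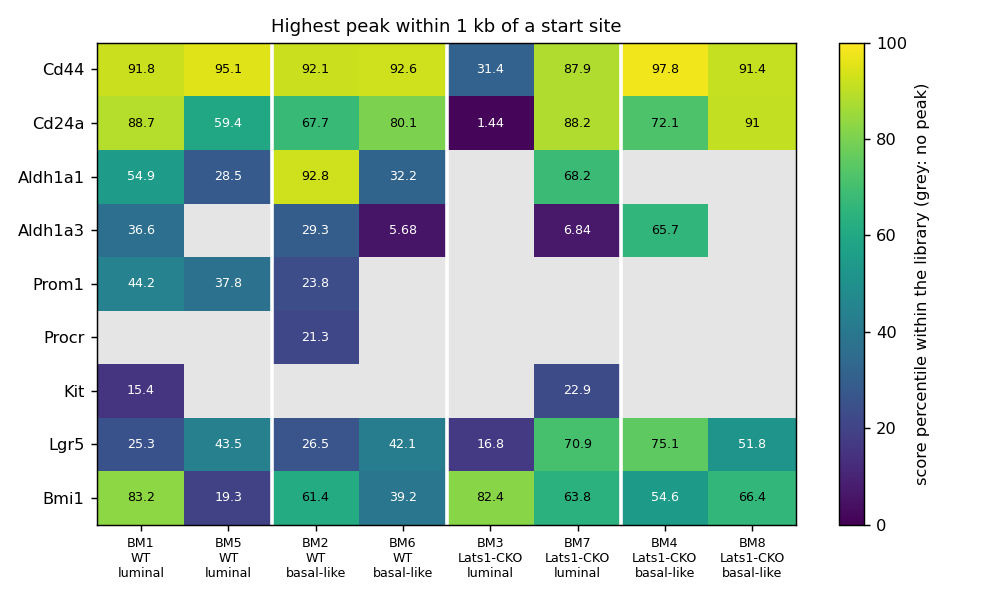
Score percentile (colour and number) of the highest peak within 1 kb of a TSS of each gene (rows) in each library (columns). Grey is no peak. Cd44, Cd24a, Lgr5 and Bmi1 were marked in all 8 libraries and Procr only in BM2.

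Counted over genes, a promoter peak was present at 8, 6, 8, 6, 4, 7, 5 and 4 of the 9 members. Over 21755 protein-coding genes the percentages were 57.7, 50.9, 55.9, 52.6, 34.6, 59.3, 57.2 and 58.3. The 4 genes with a promoter peak in every library were Cd44, Cd24a, Lgr5 and Bmi1. BM8 had the longest list and marked only these 4, whereas BM1 and BM2 marked all but a single member. Members and the protein-coding background therefore did not follow the same order over libraries, which was not tested.

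**Figure D5:**
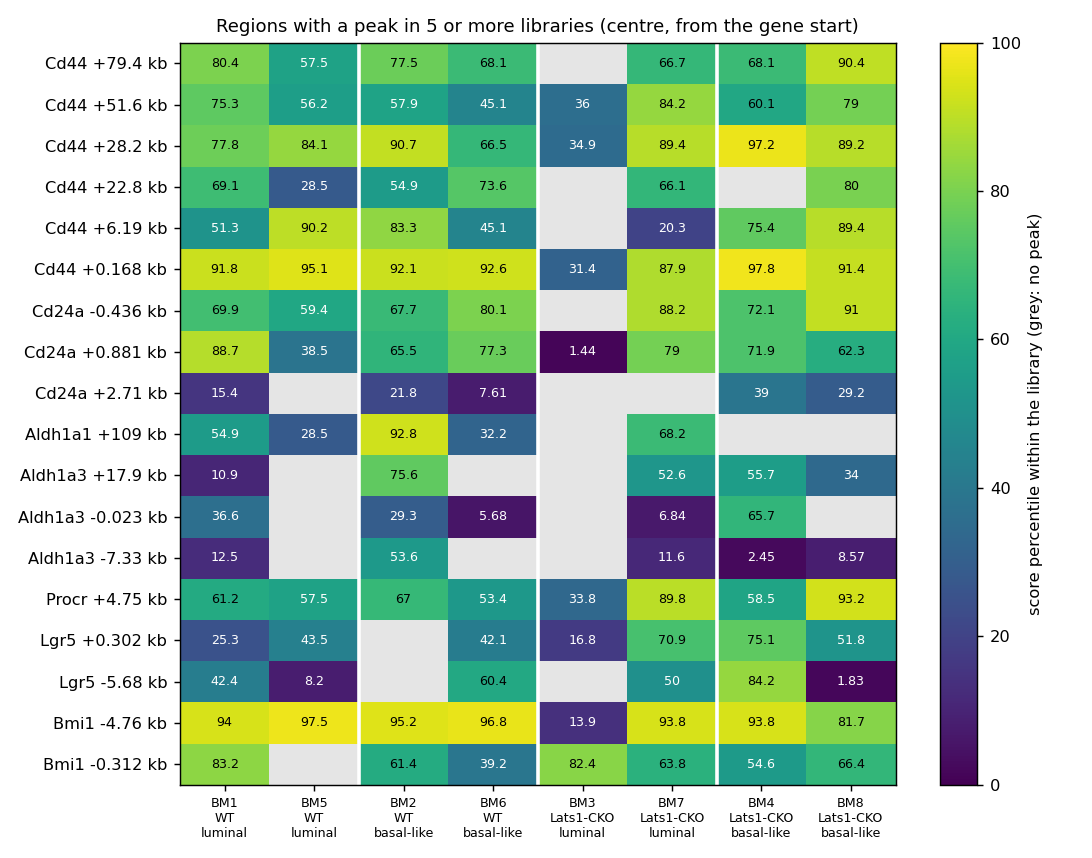
Score percentile (colour and number) of the 18 member regions called in 5 or more libraries (rows, with the distance of the centre from the gene start) in each library (columns). Grey is no peak. BM3 had a peak in 8 of them, and the Commd3 and Bmi1 region, 4.76 kb upstream of Bmi1, was at 81.7 or above in the other 7.

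Whether loss of Lats1 changed the number of peaks at these genes was asked over the 4 Lats1-CKO and 4 WT libraries. The largest difference was at Lgr5, with 4 ± 2.45 peaks in Lats1-CKO and 2.25 ± 0.957 in WT (SD, n = 4), a difference of 1.75 (exact permutation test, two-sided, p = 0.343). Aldh1a3 had 3.5 ± 2.65 and 2 ± 1.83 (exact permutation p = 0.457). Differences at the other 7 genes lay between -0.5 and 1.25, and Kit did not differ in its mean. No member was separated between the genotypes, that is, with every library of one above every library of the other, where 0.132% of the 39362 genes were. The smallest p that 4 against 4 allows is 0.0286, which 52 genes reached in this contrast. With Benjamini-Hochberg adjustment over all genes, no gene passed 0.05 and every adjusted p of the exact permutation test at the members was 1. A p of 0.0286 could pass after adjustment only if most genes reached it. The adjusted values here and below therefore cannot decide whether a member differed.

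Without BM3, Cd24a had 4, 4 and 5 peaks in Lats1-CKO and 3, 2, 3 and 3 in WT. The groups did not overlap, with a difference of 1.58 (exact permutation p = 0.0286, the smallest that 3 against 4 allows, and 0.404 after adjustment over all genes). It was 1 of 9 members, where 8.12% of all genes were separated upward in the same libraries. Lgr5 differed by 2.75 (exact permutation p = 0.0857, adjusted 0.552) and Aldh1a3 by 2.67 (exact permutation p = 0.143, adjusted 0.552). The 3 remaining Lats1-CKO lists were also the longest. When each of the 7 libraries was cut to its 51497 highest-scoring peaks, Cd24a had 2, 3 and 3 peaks in Lats1-CKO and 2, 2, 2 and 3 in WT, and no member was separated, where 1.27% of genes were separated upward. The difference was then 0.417 at Cd24a (exact permutation p = 0.486), 0.833 at Lgr5 (exact permutation p = 0.571) and 0.417 at Aldh1a3 (exact permutation p = 0.714), with an adjusted p of 1 for each.

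Within a population, the genotypes were compared 2 against 2, for which the smallest p is 0.333 and no test is given. In the luminal population no member was separated, where 5.06% of genes were. In the basal-like population Cd24a (4 and 5 against 3 and 3) and Lgr5 (6 and 3 against 1 and 2) had more peaks in both Lats1-CKO libraries, 2 of 9 members where 23.8% of genes were separated in either direction. The lists of BM4 and BM8 were longer than those of BM2 and BM6. With every library but BM3 cut to its 51497 highest-scoring peaks, Cd24a had 3 and 3 against 2 and 3. Lgr5 then had 3 and 1 against 0 and 2, so neither gene was separated. The share of all genes separated at this cut was not computed for this contrast, and the part of list length was not tested.

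Basal-like and luminal libraries were compared in the same way. Bmi1 had 3.75 ± 1.26 peaks in basal-like and 2.25 ± 0.5 in luminal libraries (SD, n = 4; exact permutation p = 0.143), and Cd24a 3.75 ± 0.957 and 2.5 ± 1.29 (exact permutation p = 0.286). Prom1 had 1 ± 0.816 and 2 ± 1.41 (exact permutation p = 0.4). No member was separated, where 0.211% of genes were, and all adjusted p of the exact permutation test at the members were 1. Among WT libraries only Lgr5 was separated, with 1 and 2 peaks in basal-like and 3 and 3 in luminal, where 8.74% of genes were. Among Lats1-CKO libraries only Bmi1 was, with 4 and 4 against 2 and 3, where 14.1% of genes were. Whether the population difference depended on genotype was not tested at these genes.

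Score percentiles of the regions were compared with a region without a peak set at 0. Between genotypes, 1 of 72 member regions was separated, the Commd3 and Bmi1 region described above, where 0.402% of all regions were. Between populations none was, where the share over all regions was 0.577%. Without BM3, 2 member regions were higher in all 3 Lats1-CKO libraries than in all WT libraries, the exonic Cd24a region and the Lgr5 TSS region, where 5.55% of all regions were. The Commd3 and Bmi1 region was the 1 lower in all 3, where 0.355% were. Those 3 Lats1-CKO lists were also the longest. With equal numbers of peaks and no BM3, 1 member region in either direction was separated between genotypes. The share over all regions was not computed for that setting.

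Genes that work with the 9 members were read from lists of 8 to 16 genes. Of 16 other mammary stem and progenitor markers, 6 to 11 per library had a promoter peak, of 8 aldehyde dehydrogenases 2 to 7, of 15 subunits of Polycomb repressive complex 1 8 to 15, of 8 LGR and R-spondin genes 3 to 6, and of 12 partners of the surface proteins 3 to 9. In none of these lists was any gene separated by peak number between genotypes or populations with all 8 libraries. Without BM3, 2 of the 16 markers, 2 of the 15 Polycomb subunits and 2 of the 8 LGR and R-spondin genes were separated upward in Lats1-CKO. None was in the other 2 lists, and 8.12% of all genes were separated upward in these libraries. The remaining Lats1-CKO lists were also the longest, and the part of list length in these genes was not tested. Rspo1, a secreted ligand of LGR receptors, was 1 of them, with no peak in any WT library or BM3 and 2, 1 and 3 peaks in BM7, BM4 and BM8. Aldh1b1, a mitochondrial relative of Aldh1a1, had the reverse pattern, with 1, 0, 1 and 1 peaks in WT and 0 in all Lats1-CKO libraries. Lgr4, a related R-spondin receptor, had a promoter peak at 97.2 or above in all 8 libraries.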

How the data were processed

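The measure was ATAC-seq in 8 libraries. Following the labels and the methods of the study, the authors trimmed reads with cutadapt, aligned them uniquely to mm10 with Bowtie 1.0.0, removed mitochondrial and duplicate reads (Picard 2.3.0) and longer fragments, and called peaks per library with MACS2 (2.1.1.20160309 per the labels; another version is named in the methods). Blacklisted peaks were removed. The deposited value is a peak score, taken to be that of MACS2, whose lowest value was 13 in every library. It is not normalised between libraries. Lists of called peaks lose weak sites in shallow libraries, so absence of a peak is not closed chromatin.

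Peaks were assigned to GENCODE M21 genes with an overlap of at least 1 bp (Python 3.11.15, pandas 2.3.3, scipy 1.17.1). Promoter means within 1 kb of a TSS. Sequences came from GRCm38. Peak numbers were compared with exact permutation tests over libraries (70 splits of 4 against 4) with Benjamini-Hochberg adjustment over all genes, and code was checked on simulated data. The members and lists were chosen with earlier results of these data known. Text named every member, its promoter region, regions called in all libraries, and separated regions, with further regions, and the genes named from the lists, chosen after their values were seen. Equal numbers of peaks without BM3 were added after seeing the data. Sequences were shown for at most 1 region per member, outside untranslated regions.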

Additional observations from a re-analysis of the deposited data

Results flagged for a closer look

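Among 63 groups of 4 libraries (a genotype or a population) examined for a library far from the other 3, 12 were flagged. The rule is set to flag about 5% of groups of normally distributed values, which does not hold for small tied counts. The groups also share libraries, so the 12 cannot be set against that rate. In 5 of the 12 the library was BM3, the shortest list. BM3 had a percentile of 34.9 at the Cd44 region 28.2 kb into the gene, against 89.2 to 97.2 in the other Lats1-CKO libraries, and 31.4 at the Cd44 TSS, against 87.9 to 97.8 in those and 87.9 to 95.1 in the other luminal libraries. At the Commd3 and Bmi1 region BM3 was at 13.9, against 81.7 to 93.8 in the other Lats1-CKO and 93.8 to 97.5 in the other luminal libraries.

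The other 7 flags concern peak numbers, where 3 libraries had the same number and any departure is flagged. BM2 had 4 Procr peaks, against 1 in each of the other WT and the other basal-like libraries, and 5 Bmi1 peaks against 2 in the other WT libraries. BM7 had 2 Procr peaks, against 1 in the other Lats1-CKO and luminal libraries, and 3 Bmi1 peaks against 2 in the other luminal libraries. BM5 had 2 Cd24a peaks against 3 in the other WT libraries.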

How the results depend on the processing

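No paired analysis was possible because the labels carry no replicate numbers, and those used here, given in accession order, only name libraries. Over 17 alternatives, no member passed the adjusted threshold: the smallest adjusted p of the exact permutation test was 0.404 between genotypes and 0.941 between populations. Signs of 13 of 153 member differences between genotypes and 16 of 153 between populations turned, none of them past the threshold. Kit, with a difference of 0 over all libraries in both contrasts, is part of the 153 but could not be counted as turned. Differences that fell to 0 were not counted as turned either.

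Leaving out 1 library, the number of separated members ranged from 0 to 1 between genotypes (1 without BM3, Cd24a) and between populations (1 without BM6, Bmi1). Separated regions ranged from 1 to 3 between genotypes: 3 without BM3 (named above), and 2 without BM4 (with the Cd44 TSS), BM6 (with the Prom1 region) or BM7 (with the Aldh1a1 start). They ranged from 0 to 2 between populations: 2 without BM1 (Cd44 at 79.4 kb and Cd24a at 2.71 kb) and 1 without BM6 (Cd24a at 2.71 kb). Without BM3, 8.12% of all genes were separated upward in Lats1-CKO by peak number. Of all regions, 5.55% were then higher and 0.355% lower in Lats1-CKO. Such shares were not computed with any other library left out, so the further counts have no background beside them. Under the other alternatives the counts of separated members and regions were those given above for all libraries. This included equal numbers of peaks without BM3, with 1 separated region between genotypes. Leave-one-out differences (Lats1-CKO minus WT) turned at Cd44 (-0.5 to 2.5) and Procr (up to 0.25).

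Keeping the 14753 best-scored peaks per list, genotype differences were -0.25 at Aldh1a1 and Bmi1 and 0.75 at Procr, and with 10000 the same; Lgr5 fell to 0.5 and 0, and Aldh1a3 to 0 in both. Peaks above the median score gave -0.5 at Cd44 and 0.25 at Prom1, the TSS window alone -0.5 at Aldh1a1, and peak bases -19 at Bmi1. For basal-like minus luminal, the 14753 peaks gave -0.25 at Procr and -0.75 at Bmi1, and 10000 gave -0.25 at both. Peaks above the median gave 0.75 at Lgr5, and peak bases -42.2 at Aldh1a1. Equal numbers without BM3 gave -0.167 at Cd44 and -0.583 at Aldh1a1. Leave-one-out values turned at Cd44 (-0.75 to 2.25), Aldh1a1 (-0.833 to 1.08), Procr (down to -0.25) and Lgr5 (-1.25 to 0.667). Why these signs turned was not tested. The short list of BM3 and peak lists without read depth limit every comparison.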
